A study of Mus musculus with 32 samples.

Results

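RNA levels of all genes were compared between polycystic mouse kidneys with and without a short course of salsalate, once a kidney with a high level of liver transcripts was set aside. Of the 32 kidneys sequenced, 23 enter the comparison: all 12 PKD + Salsalate kidneys and 11 of the 12 PKD kidneys, without PKD replicate 10 and without the 8 wildtype kidneys. PKD replicate 10 was left out because of its level of *Alb*, the liver's serum albumin gene. All 23 mice were male C57BL/6 iKspCre-Pkd1del animals aged 95 days. Their Cre recombinase is inducible by tamoxifen and is driven by the Ksp-cadherin promoter, so tamoxifen deletes floxed *Pkd1* in tubule cells and not in the other cells of the kidney. Every mouse was given tamoxifen at 150 mg/kg on postnatal days 18 and 19. On postnatal day 81 the PKD + Salsalate mice moved to chow with 2.5 g/kg salsalate for 2 weeks, and the PKD mice stayed on plain chow. Mice in end-stage renal disease were killed before that age, so both groups hold only animals that had not reached it. From the remaining mice the study picked 12 per group with a similarly mild cystic phenotype, judged by kidney weight relative to body weight. That weight was taken at the end, so the groups were matched on severity after treatment. RNA came from homogenised kidney, and in such bulk RNA fewer cells of a type and less RNA per cell cannot be told apart.

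*Pkd1* encodes polycystin-1, and its loss turns tubule segments into cysts whose lining cells divide, lean less on fatty acid oxidation and draw in inflammatory cells. Salsalate is a dimer of salicylate that is split in the body. Salicylate is known to activate the energy sensor AMPK and to dampen NF-κB signalling, and it is bound to coenzyme A before it is joined to glycine for excretion. Fatty acids and their relatives activate the nuclear receptor PPARα, which switches on genes for ω-hydroxylation, peroxisomal and mitochondrial oxidation.

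Reads assigned to genes numbered 11193136 to 47213530 per PKD kidney (median 16858679) and 14088385 to 109807664 per PKD + Salsalate kidney, of which replicate 3 was the deepest. *Alb* lay between 0.959 and 4.54 CPM (a gene's count relative to its library's total, scaled with TMM factors) in the 23 kidneys and at 1929 CPM in the kidney left out. *Pkd1* was read at 71.7 to 115.7 CPM in PKD and 69.0 to 122.2 CPM in PKD + Salsalate kidneys. Both groups carry the deletion and the count includes the exons that remain, so this value checks neither group.

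Of 13812 genes tested with edgeR's quasi-likelihood test in these 23 kidneys alone, 170 had an adjusted p under 0.05 and are termed called. The called genes were 84 higher in PKD + Salsalate (0.608% of the genes tested) and 86 lower (0.623%). At an unadjusted p under 0.05 there were 892 higher (6.46%) and 958 lower genes (6.94%), and the median log2 fold change of all genes was -0.0089. Of all genes tested, 7438 (53.85%) lay below 0 and 6374 above it. Counts in the gene lists below are to be read beside these shares. Most changes were small: 125 of the 170 called genes differed by less than 1.5-fold and 8 by more than 2-fold. They were 160 protein-coding genes, 8 long non-coding RNAs and 2 pseudogenes. Of the 170, 92 belong to the genes the study selected from these same kidneys, and 78 do not, 42 of them higher and 36 lower. With any 1 of the 23 kidneys left out, no called gene turned its direction and 85 stayed called in all 23 fits (41 higher, 44 lower). The number called then ran from 95 to 447. It moved by more than 1.5 times without PKD replicate 1 (95), 5 (106) or 11 (103) and without PKD + Salsalate replicate 5 (112) or 11 (447).

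**Figure D1:**
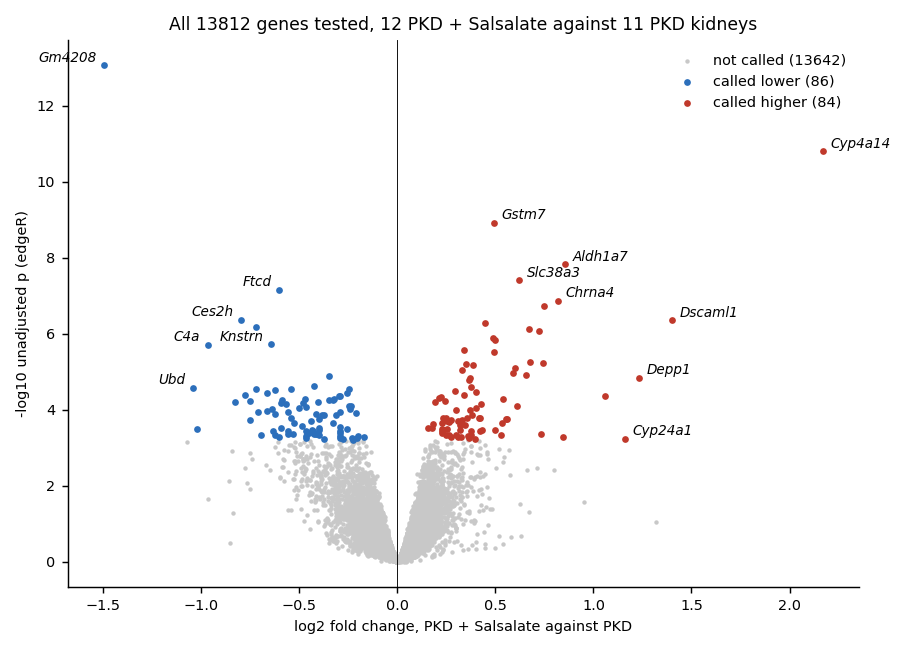
Each point is a gene tested, with its log2 fold change between 12 PKD + Salsalate and 11 PKD kidneys on the horizontal axis and -log10 of the unadjusted edgeR p on the vertical axis. Red points are the 84 genes called higher and blue points the 86 called lower, with *Cyp4a14* farthest right at 2.17 and *Gm4208* farthest left at -1.50.

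In 6 genes (0.0434% of those tested) the 2 groups did not overlap at all. *Cyp4a14*, a fatty acid ω-hydroxylase and a classic PPARα target, was at 18.4 to 52.0 CPM in PKD kidneys (median 34.7) and at 84.8 to 261.7 CPM in PKD + Salsalate kidneys (median 151.9). Its log2 fold change was 2.17 (SE 0.19, adjusted p = 1.09e-07). *Gm4208* (chromosome 1, 62860506 to 62898794, minus strand, GRCm39), a long non-coding RNA, fell from 5.53 to 8.37 CPM (median 6.51) to 1.66 to 3.49 CPM (median 2.29), a log2 fold change of -1.50 (SE 0.11, adjusted p = 1.18e-09). This was the smallest p of all genes, and all 12 treated kidneys lay below the lowest PKD kidney.

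The other 4 genes without overlap all rose. *Aldh1a7*, an aldehyde dehydrogenase, lay at 16.4 to 33.4 CPM (median 24.2) in PKD and 35.3 to 53.7 CPM (median 45.4) in PKD + Salsalate kidneys (log2 fold change 0.86, SE 0.11, adjusted p = 5.09e-05). *Slc38a3*, a glutamine transporter of the proximal tubule and a gene outside the study's selection, lay at 27.8 to 49.7 CPM (median 41.8) and 54.7 to 83.5 CPM (median 63.1) (log2 fold change 0.62, SE 0.08, adjusted p = 0.000107). The glutathione transferase gene *Gstm7* lay at 7.57 to 10.2 CPM (median 9.11) and 11.5 to 14.7 CPM (median 12.9) (log2 fold change 0.50, SE 0.05, adjusted p = 5.57e-06). *Chrna4*, a subunit of nicotinic acetylcholine receptors, lay at 23.2 to 50.6 CPM (median 36.4) and 52.97 to 80.8 CPM (median 63.6) (log2 fold change 0.82, SE 0.11, adjusted p = 0.000263). In each of these 4 genes every treated kidney lay above every PKD kidney.

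**Figure D2:**
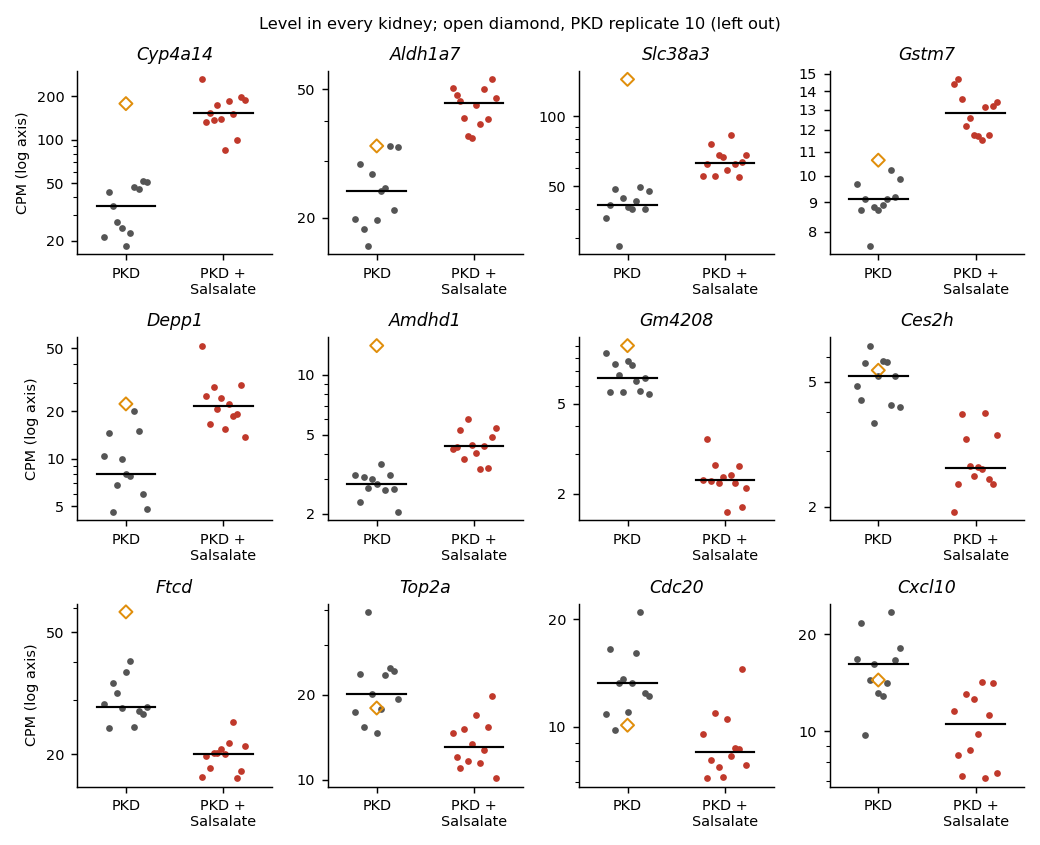
CPM of 12 genes in every kidney on log axes, with grey points for the 11 PKD kidneys, red points for the 12 PKD + Salsalate kidneys and a bar at each group's median. The open diamond is PKD replicate 10, which was not in the comparison. It sits at 144.1 CPM for *Slc38a3* and at 14.0 CPM for *Amdhd1*, above all other kidneys.

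Among the other large rises was *Depp1*, a FOXO-controlled gene that responds to fasting. It went from 4.59 to 19.9 CPM (median 7.95) in PKD to 13.6 to 52.0 CPM (median 21.5) in PKD + Salsalate kidneys, a log2 fold change of 1.23 (SE 0.23, adjusted p = 0.00648). *Cyp24a1*, the enzyme that breaks down active vitamin D, went from 12.9 to 87.4 CPM (median 30.1) to 53.2 to 174.4 CPM (median 81.9), with the groups overlapping (log2 fold change 1.16, SE 0.30, adjusted p = 0.0479). It stayed called in 8 of the 23 fits that leave out a kidney. *Dscaml1*, a cell adhesion gene of neurons, was low throughout at 0.487 to 1.85 CPM and 0.984 to 4.03 CPM (log2 fold change 1.40, SE 0.21, adjusted p = 0.000615).

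Fatty acid genes rose in part. Of 33 tested PPARα targets, 4 were called higher and none lower, 10 were higher and none lower at an unadjusted p under 0.05, and the list median was 0.08 against -0.0089 over all genes. Beside *Cyp4a14* these were *Cyp4a10*, another ω-hydroxylase (log2 fold change 0.43), *Vnn1*, which frees pantothenate, the precursor of coenzyme A (0.49), and *Acot1*, which splits acyl-CoA (0.49). *Acot1* lay at 58.5 to 89.1 CPM in PKD and 87.1 to 138.3 CPM in treated kidneys, and all 12 treated values were above the PKD median. Reads that fit *Cyp4a10*, *Cyp4a14* or their near-identical neighbours equally well were not counted, so the levels of single members of that family are less certain. Among the PPARα targets that were not called, *Retsat* was at 0.31 (adjusted p = 0.18) and *Ehhadh* at 0.25 (adjusted p = 0.21).

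Mitochondrial fatty acid oxidation had 2 called rises among 32 genes and 9 against 0 at an unadjusted p under 0.05. They were *Acaa2*, the last step of the β-oxidation spiral (203.1 to 248.3 CPM in PKD and 231.7 to 412.0 CPM in treated kidneys, log2 fold change 0.33), and *Acss1*, which activates acetate in mitochondria (0.38). *Acaa2* was not among the study's selection. Of 22 genes for acyl-CoA thioesterases and coenzyme A, 3 were called higher: *Vnn1*, *Acot1* and *Acot7* (0.23). *Acadvl*, the first dehydrogenase for long chains, was 0.16 higher and did not pass (adjusted p = 0.079). In the peroxisome the single called gene among 29 fell: *Pecr*, a trans-2-enoyl-CoA reductase, went from 262.2 to 329.9 CPM to 194.2 to 293.3 CPM (log2 fold change -0.29, adjusted p = 0.0128).

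Respiratory chain genes lay slightly higher in large number without a call. Of 72 nuclear-encoded subunits, none was called, 5 lay below 0, and 13 were higher and none lower at an unadjusted p under 0.05, with a median log2 fold change of 0.11. *Cyc1*, the cytochrome c1 subunit of complex III, had the smallest p, at 351.7 to 466.5 CPM (median 411.3) in PKD and 374.4 to 530.2 CPM (median 475.9) in PKD + Salsalate kidneys (log2 fold change 0.22, adjusted p = 0.071). Of 11 tested genes of the mitochondrial genome, 10 lay above 0 and none was called. The median of these 11 was 0.17. The share of counts on mitochondrial genes was 6.98% to 8.85% in PKD kidneys and 7.72% to 10.1% in PKD + Salsalate kidneys, in libraries made by poly(A) selection.

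Among the rises, detoxifying enzymes were the list with the most calls by number, though not the highest by share. At an unadjusted p under 0.05, 27.5% of this list was higher, beside 6.46% of all genes. That share was 30.3% for PPARα targets, 28.1% for mitochondrial fatty acid oxidation and 45.5% for the mitochondrial genome. Of 40 tested glutathione transferases and targets of NRF2, the transcription factor of the oxidant response, 6 were called higher and none lower, with 11 higher and 2 lower at an unadjusted p under 0.05. They were *Gstm7* (0.50), *Gstm1* (0.30), *Gstm4* (0.25), *Gstt3* (0.22), *Cbr1*, a carbonyl reductase (0.42), and *Akr1c13*, an aldo-keto reductase (0.35). *Gstm1*, which the study did not select, lay at 395.2 to 566.5 CPM (median 511.7) and 530.8 to 670.6 CPM (median 622.1). Other NRF2 targets of the list were not called, such as the quinone reductase *Nqo1* (0.17, adjusted p = 0.40), the heme oxygenase *Hmox1* (-0.31, adjusted p = 0.44) and *Gclc* of glutathione synthesis (-0.06, adjusted p = 0.86). In the list of aldehyde dehydrogenases and retinoid genes 2 of 27 were called, both higher. Beside *Aldh1a7*, its close relative *Aldh1a1*, which makes retinoic acid, rose from 14.3 to 28.4 CPM to 24.1 to 51.0 CPM (log2 fold change 0.68, SE 0.12, adjusted p = 0.00363). Reads that fit both of these paralogues equally well, or several of the *Gstm* cluster, were not counted, so such levels rest on the parts that differ.

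Cholesterol synthesis had 2 called rises among 24 genes: *Mvk*, mevalonate kinase (0.34), and *Tm7sf2*, a sterol reductase (0.32), with 6 higher and none lower at an unadjusted p under 0.05. *Tmem97*, which acts in cholesterol transport and lies outside that list, rose by 0.19 on the log2 scale (adjusted p = 0.0145). Among 17 fatty acid synthesis genes, the desaturase *Fads1* was called (0.37), from 74.7 to 133.7 CPM to 107.8 to 169.3 CPM.

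Amino acid breakdown lay mainly higher, with 27 of 41 genes above 0, 10 higher and 2 lower at an unadjusted p under 0.05, and a median of 0.06. Of the 41 genes, 3 were called higher and 1 lower, and histidine breakdown held a called gene in each direction. *Amdhd1* and *Ftcd* act in sequence in the breakdown of histidine to glutamate, with *Uroc1* ahead of both. *Amdhd1* rose from 2.04 to 3.56 CPM (median 2.83) to 3.36 to 6.01 CPM (median 4.36) (log2 fold change 0.67, SE 0.10, adjusted p = 0.00079). *Ftcd*, which passes the formimino group to folate, fell from 24.4 to 40.4 CPM (median 28.5) to 16.7 to 25.5 CPM (median 20.1) (log2 fold change -0.60, SE 0.08, adjusted p = 0.000162). *Uroc1* was at -0.36 (adjusted p = 0.058). *Bcat1*, a branched-chain transaminase, rose by 0.65 on the log2 scale and *Ddc*, which makes dopamine in the proximal tubule, by 0.42. *Cdo1*, the enzyme that commits cysteine to taurine, rose by 0.34 (69.7 to 108.3 CPM against 91.9 to 152.6 CPM). By contrast, *Pipox* (-0.24), which breaks down pipecolate and sarcosine, *Qprt* (-0.24), an enzyme of NAD synthesis from tryptophan, and *Dpys* (-0.40), which breaks down pyrimidines, fell.

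Transporters of the proximal tubule changed in both directions as well. Among 33 carriers of organic anions, organic cations and phosphate, 3 were called higher and 1 lower. *Slc17a4*, an anion carrier that handles urate, went from 3.93 to 6.94 CPM to 6.34 to 12.8 CPM (log2 fold change 0.75, adjusted p = 0.000327). *Slc22a29* (0.59) and *Slc23a3* (0.36) were higher, whereas *Slco1a6*, which carries organic anions into the cell, was lower (median of 101.6 CPM against a median of 79.2 CPM, -0.35). *Slc5a2*, the glucose carrier of the early proximal tubule, was the called gene among 25 proximal tubule markers (0.26), whose median was 0.02. *Abcb1b*, a drug efflux pump, rose by 0.42 on the log2 scale.

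Several families that act on drugs held called falls. In the N-acetyltransferase 8 family, whose members acetylate cysteine conjugates, 7 of 8 tested genes lay below 0 and 2 were called: *Nat8f5*, from 21.8 to 37.5 CPM (median 30.0) to 10.9 to 25.0 CPM (median 17.8) (log2 fold change -0.72, SE 0.11, adjusted p = 0.000761), and *Nat8f3* (-0.33). The carboxylesterases, which split esters, had 2 called falls among 9: *Ces2h*, from 3.70 to 6.52 CPM to 1.92 to 3.98 CPM (-0.80, adjusted p = 0.000615), and *Ces1e* (-0.29). Of 17 tested genes for the glycine and glucuronide conjugation of salicylate, none was called, 5 were lower and none higher at an unadjusted p under 0.05, and the median was -0.16. The smallest p in that list belonged to *Acsm1* (-0.29, adjusted p = 0.074) and *Ugt2b37* (-0.51, adjusted p = 0.078). Members of these 3 families resemble each other closely, and their counts are uncertain to that degree.

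The falls were led by the cell cycle. Of 72 tested genes of mitosis and the kinetochore, 69 lay below 0, 18 were called lower and none higher, and 62 were lower at an unadjusted p under 0.05 (86.1%, beside 6.94% of all genes). The list median was -0.46. With a kidney left out the number called ran from 9 (without PKD replicate 9) to 47 (without PKD + Salsalate replicate 11). The called genes included the mitotic kinase *Bub1* (-0.72), the topoisomerase *Top2a* (-0.67), the spindle gene *Knstrn* (-0.64), the kinetochore scaffold *Knl1* (-0.63), the cyclin *Ccnb2* (-0.62), the anaphase activator *Cdc20* (-0.59) and *Cdca8* of the chromosomal passenger complex (-0.54). The proliferation marker *Mki67* (-0.47), the kinetochore gene *Cenpf* (-0.47) and *Foxm1*, the transcription factor of mitotic genes (-0.43), were called here and lie outside the study's selection. For Ki67, the protein of *Mki67*, the study had already reported a smaller share of stained nuclei with salsalate. It saw no difference when such nuclei were counted by tubule and cyst size. *Top2a* lay at 14.6 to 39.4 CPM (median 20.1) in PKD and 10.1 to 19.8 CPM (median 13.1) in PKD + Salsalate kidneys. The 2 groups overlapped, and all 12 treated kidneys lay below the PKD median.

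DNA synthesis moved the same way with smaller steps. All 55 tested genes of replication and S phase lay below 0, 6 were called lower, 36 were lower at an unadjusted p under 0.05, and the median was -0.21. The called genes were the helicase subunits *Mcm2* (-0.41) and *Mcm3* (-0.40), the ligase *Lig1* (-0.31), *Uhrf1*, which copies DNA methylation (-0.50), *Atad2* (-0.39) and the transcription factor *E2f1* (-0.40). Among 28 checkpoint genes, *Chek1* (-0.57), *Wee1* (-0.37) and *H2ax* (-0.29) were called. *Ccnd1*, the cyclin that brings cells from G1 towards S phase, fell from 443.5 to 609.8 CPM (median 547.6) to 424.8 to 536.8 CPM (median 449.9), a log2 fold change of -0.26 (SE 0.05, adjusted p = 0.0117). It is not in the study's selection. The p53 targets did not move together, with *Pmaip1* lower (-0.56), *Aen* higher (0.23) and a median of -0.00018 over 23 genes.

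Promoters of these genes were read from RefSeq (GRCm38.p6) because so many of them moved together. Mitotic promoters are known for a CCAAT box near a cell cycle homology region (CHR), and S phase promoters for E2F motifs. The 250 bases before the start of transcription, the first promoter listed for a gene, were searched on both strands for CCAAT, for TTTGAA (CHR) and for TTCCCGC or TTGGCGC (E2F), and overlapping matches were each counted. Among 61 mitosis genes with a promoter in the table, 41 held CCAAT (67.2%), 21 held TTTGAA (34.4%) and 17 held both (27.9%). Over all 27025 promoters the shares were 34.5%, 16.3% and 5.73%, and over the 10395 tested genes with a promoter they were 35.8%, 10.6% and 3.97%. Among 44 replication genes, 14 held an E2F motif (31.8%, beside 5.71% of all promoters and 9.91% of those of tested genes), and among the 5 called replication genes with a promoter 1 did. A pair of AGGTCA half-sites with a single base between them, the simplest PPAR motif, was in none of the promoters of 22 PPARα targets and in 0.037% of all promoters. Over all called genes with a promoter the share with both was 10.8% of 65 lower and 12.5% of 56 higher genes. Of the 17 called mitosis genes with a promoter, 5 held both CCAAT and TTTGAA. The 3 of these with the smallest p are shown, together with *Uhrf1* as the called replication gene with an E2F motif, 5′ to 3′ towards the gene, with every match on either strand in capitals:
Top2a, chr11:99024190-99024439, minus strand: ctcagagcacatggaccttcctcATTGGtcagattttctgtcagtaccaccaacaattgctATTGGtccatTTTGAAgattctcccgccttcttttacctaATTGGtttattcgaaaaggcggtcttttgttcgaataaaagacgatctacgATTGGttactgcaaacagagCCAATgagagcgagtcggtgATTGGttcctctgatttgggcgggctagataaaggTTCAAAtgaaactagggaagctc
Cdc20, chr4:118437344-118437593, minus strand: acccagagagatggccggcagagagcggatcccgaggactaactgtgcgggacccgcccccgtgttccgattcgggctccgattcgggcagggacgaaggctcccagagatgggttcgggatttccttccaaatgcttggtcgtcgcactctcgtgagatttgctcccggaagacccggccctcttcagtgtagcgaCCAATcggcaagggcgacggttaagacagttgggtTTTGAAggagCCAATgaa
Cdkn3, chr14:46760291-46760540, plus strand: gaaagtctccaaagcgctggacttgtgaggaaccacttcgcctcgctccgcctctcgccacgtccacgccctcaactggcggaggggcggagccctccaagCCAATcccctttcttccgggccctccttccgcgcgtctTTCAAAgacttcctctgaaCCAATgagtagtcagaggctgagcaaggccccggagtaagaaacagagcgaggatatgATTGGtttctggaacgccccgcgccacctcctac
Uhrf1, chr17:56303087-56303336, plus strand: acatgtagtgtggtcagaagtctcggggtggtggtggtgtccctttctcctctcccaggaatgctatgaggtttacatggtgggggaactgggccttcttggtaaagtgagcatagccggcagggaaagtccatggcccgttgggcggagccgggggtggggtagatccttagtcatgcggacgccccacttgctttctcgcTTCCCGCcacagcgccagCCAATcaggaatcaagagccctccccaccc
In *Top2a* the capitals mark 6 CCAAT boxes and 2 TTTGAA motifs, and in *Cdc20* a TTTGAA motif begins 18 bases before the start with CCAAT boxes 53 and 8 bases before it. Such matches are letters in a window, and these data do not show whether any factor binds there.

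**Figure D3:**
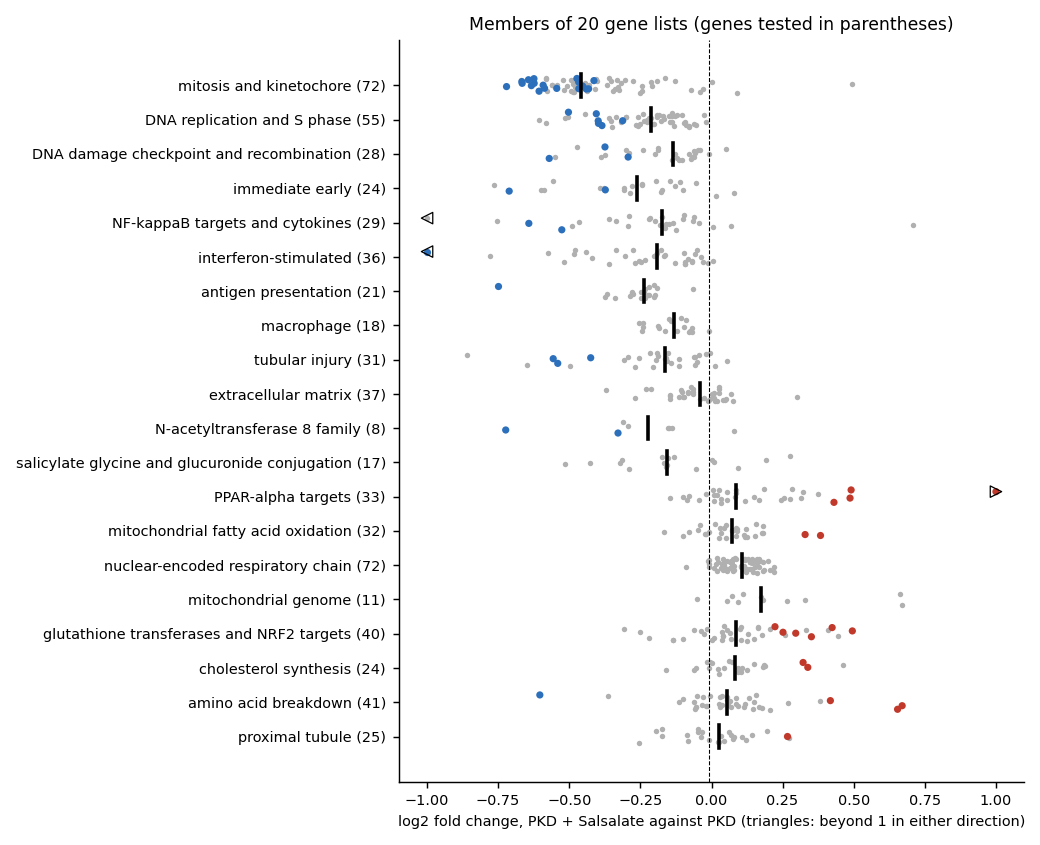
Each point is a tested member of 1 of 20 gene lists, placed at its log2 fold change between PKD + Salsalate and PKD kidneys, with called genes in blue (lower) or red (higher) and a black bar at the list median. The dashed line is the median of all genes at -0.0089, and triangles hold *Il1rn* (-1.07, not called), *Ubd* (-1.04) and *Cyp4a14* (2.17), which lie beyond the axis. The mitosis median is the lowest at -0.46.

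Inflammatory genes lay lower with few calls. Among 29 NF-κB targets and cytokines, 26 lay below 0 and 2 were called, both chemokines that draw T cells: *Cxcl10*, from 9.75 to 23.5 CPM (median 16.2) to 7.13 to 14.2 CPM (median 10.5) (log2 fold change -0.64, SE 0.14, adjusted p = 0.018), and *Ccl5* (-0.53). *Il1rn* was 1.07 lower on the log2 scale with an adjusted p of 0.053. Of 36 interferon-stimulated genes, 35 lay below 0 and 17 were lower at an unadjusted p under 0.05, with *Ubd* called, a ubiquitin-like protein induced by interferon γ (2.23 to 10.9 CPM against 1.33 to 3.62 CPM, -1.04). All 21 tested antigen presentation genes lay below 0 and 18 were lower at an unadjusted p under 0.05, with a median of -0.24, and *H2-DMb2*, which helps load peptides on MHC class II, was called (-0.75). In the complement list *C4a* was called (-0.97), while its neighbour *C4b*, with which it shares nearly all sequence, was at -0.53 (adjusted p = 0.15). The polymeric immunoglobulin receptor *Pigr* (-0.54) and *Ly6e* (-0.26) were called as well.

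Genes of the immediate early response were lower in 22 of 24 cases, with *Atf3* (-0.71) and *Jun* (-0.37) called and 15 lower at an unadjusted p under 0.05. Among MAPK feedback genes the phosphatase *Dusp8* fell (-0.56), while *Etv5* was at 0.40 (adjusted p = 0.074), so this list did not move as 1 group (median 0.01). *Nuak2*, a kinase of the AMPK family, fell from 107.2 to 165.3 CPM to 65.6 to 142.9 CPM (-0.43). Of the 23 genes of AMPK and energy sensing, none was called, 3 were higher and none lower at an unadjusted p under 0.05, and the median was 0.01.

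Of 31 tubular injury genes 29 lay below 0, 8 were lower and none higher at an unadjusted p under 0.05, and *Olfm4* (-0.42), *Pigr* and *Adam8* (-0.56) were called. *Havcr1*, which encodes the injury marker KIM-1, varied widely in both groups: 28.6 to 90.5 CPM (median 60.3) in PKD and 16.5 to 145.8 CPM (median 43.0) in PKD + Salsalate kidneys. Its log2 fold change was -0.16 (SE 0.27, adjusted p = 0.85). The highest value of all belonged to PKD + Salsalate replicate 11, and that kidney had the highest macrophage level of the 23 too. Of the 86 genes called lower, 31 were above the PKD median in that kidney, against 0 to 2 in the other 11 treated kidneys. Of the 84 genes called higher, 8 were below the PKD median in it, against 0 to 3 in the others. Without that kidney calls rose over all genes, to 447 of 13775 (193 higher, 254 lower). Among them were 47 of the 72 mitosis genes (median -0.54), 20 of the 55 replication genes (median -0.25), 8 of the 21 antigen presentation genes (median -0.27) and 4 of the 33 PPARα targets (median 0.11). The immediate early and tubular injury lists then held 6 called genes each, the NF-κB, interferon and mitochondrial fatty acid oxidation lists 5 each, and the checkpoint list 6. Lists with no call among the 23 kidneys gained some too: 3 each for the respiratory chain, the TCA cycle and the macrophage markers, 2 each for salicylate conjugation, the YAP and Wnt targets and the distal nephron, and 1 each for the mitochondrial genome, the serine and folate list and muscle. The kidney was singled out after its values were seen, and part of them lay on the PKD side of the called genes. More calls without it are thus no separate support for any list.

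Within groups, *Havcr1* moved with *Top2a* in the treated kidneys and with *Cyp4a14* in the PKD kidneys. The log2 levels of *Top2a* and *Havcr1* had a Pearson r of 0.83 over the 12 PKD + Salsalate kidneys (permutation p = 0.00066, adjusted 0.00396 over 6 relations) with Spearman's rho 0.75 (permutation p = 0.00702, adjusted 0.0211). Without the 2 kidneys farthest from the median of *Havcr1* r was 0.79. Over the 11 PKD kidneys r was 0.57 (permutation p = 0.0687, adjusted 0.0824) and rho 0.60 (permutation p = 0.0569, adjusted 0.0854), and r fell to 0.17 without the 2 farthest kidneys, so there it rests on them. For *H2-Ab1*, an MHC class II gene, r was 0.68 in treated (permutation p = 0.0129, adjusted 0.0386) and 0.57 in PKD kidneys (permutation p = 0.0664, adjusted 0.0824), with rho 0.62 (permutation p = 0.0382, adjusted 0.0764) and 0.49 (permutation p = 0.129, adjusted 0.155), and without the 2 farthest kidneys r was 0.46 and 0.012. For *Cyp4a14* r was 0.081 in treated kidneys (permutation p = 0.804, adjusted 0.804) with rho 0.14 (permutation p = 0.669, adjusted 0.669), and -0.26 without the 2 farthest. In PKD kidneys it was 0.69 (permutation p = 0.0206, adjusted 0.0412) with rho 0.79 (permutation p = 0.00583, adjusted 0.0211), and 0.82 without the 2 farthest. These levels come from the same libraries. *Havcr1* and *H2-Ab1* were picked after their values were seen, and the adjustment over 6 relations does not cover that choice.

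**Figure D4:**
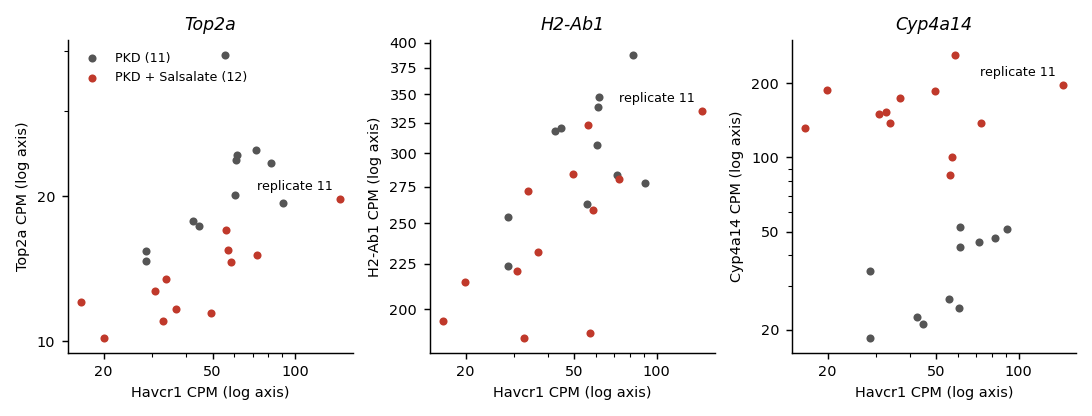
CPM of *Top2a*, *H2-Ab1* and *Cyp4a14* against CPM of *Havcr1* on log axes, a point per kidney (grey, 11 PKD; red, 12 PKD + Salsalate). *Top2a* follows *Havcr1* in the treated kidneys (r = 0.83), and PKD + Salsalate replicate 11 lies farthest right at 145.8 CPM.

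In a fit with the log2 level of *Havcr1* as a covariate, added after these values were seen, 217 genes were called (93 higher, 124 lower), and 154 of the 170 genes were among them. In that fit 28 mitosis genes were called rather than 18, and the median of the list was -0.37 rather than -0.46. Of the 86 genes called lower 36 also varied with *Havcr1* at an adjusted p under 0.05, against 4 of the 84 called higher and 1345 of all 13812 genes. Where the drug acts on *Havcr1* itself, such a fit removes that part of its effect.

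Markers of other cells moved with these groups to different degrees, and their part in the results above was not tested. All 18 macrophage markers lay below 0 (median -0.13), none was called, and their summed level was 453.7 to 736.5 CPM in PKD and 391.7 to 890.1 CPM in treated kidneys. Of 18 T and natural killer cell markers, 4 passed the filter on low counts, all below 0 with none called, and the summed level was 21.7 to 40.9 CPM (median 29.4) against 16.1 to 28.1 CPM (median 23.7). At an unadjusted p under 0.05, 3 of these 4 were lower, and their median log2 fold change was -0.38. The T cell receptor genes *Cd3d* and *Cd3e* stayed between 0.535 and 2.48 CPM in all 23 kidneys. Of 8 tested red cell markers 7 lay above 0 (median 0.40), with summed levels of 119.8 to 234.9 CPM and 147.5 to 374.0 CPM. Among these 8, 4 were higher and none lower at an unadjusted p under 0.05. All 12 tested fat markers lay above 0 (median 0.23, none called) and varied more within groups, from 135.2 to 719.5 CPM in PKD and 90.4 to 703.2 CPM in treated kidneys. The 24 distal nephron and collecting duct markers (median 0.06) and the 26 kidney identity factors (0.0042) held no call. Of 11 neutrophil markers 1 passed the filter, and their summed level was 5.91 to 9.31 CPM against 4.11 to 10.7 CPM. B and plasma cell markers (8 tested, median 0.05), adrenal cortex markers (4 tested, -0.33) and muscle markers (3 tested, 0.57) held no call, and no member of any marker list was at 0 in all 23 kidneys. Unadjusted p was under 0.05 for 2 adrenal markers, both lower, and 2 muscle markers, both higher. Summed adrenal levels were 98.5 to 225.7 CPM (median 121.0) in PKD and 104.3 to 122.6 CPM (median 113.7) in treated kidneys. The adrenal gene *Cyp21a1*, under the filter, reached 21.3 CPM in PKD (median 0) and 0.054 CPM in treated kidneys. With a kidney left out the adrenal median ran from -0.36 to -0.07. Markers of endothelium (median -0.02) and of fibroblasts and pericytes (-0.07), and the 37 genes of the extracellular matrix (-0.04), held no called gene.

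Leaving out PKD replicate 10 changed which genes were called. With it in the comparison, which otherwise used the same 23 kidneys, 198 genes were called and 152 were shared, so 18 were called only without it and 46 only with it. Of the 18, 11 were higher in treated kidneys, and in 12 of the 18 PKD replicate 10 was above every other PKD kidney. They include *Slc38a3* (adjusted p = 0.000107 without and 0.363 with it), *Amdhd1* (0.00079 and 0.617), *Aldh1a1* (0.00363 and 0.285) and *Cdo1* (0.0323 and 0.254). *H2-Q10*, an MHC class I gene of the liver, was at 0.617 to 1.97 CPM in PKD and 1.35 to 3.78 CPM in treated kidneys and rose by 0.73 on the log2 scale, but at 212.7 CPM in the left-out kidney it read as -3.06 with it. Of the 46 genes called only with that kidney, 45 had an adjusted p under 0.1 without it, and the other was *Alb* itself. *Hrg* (-0.83) and *Apoc3* (-0.59), which the liver makes for plasma, fell in the 23 kidneys, where the 24 tested liver markers had a median of 0.01 and 12 lay on each side of 0. Of these 24, 6 were lower and 2 higher at an unadjusted p under 0.05.

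**Figure D5:**
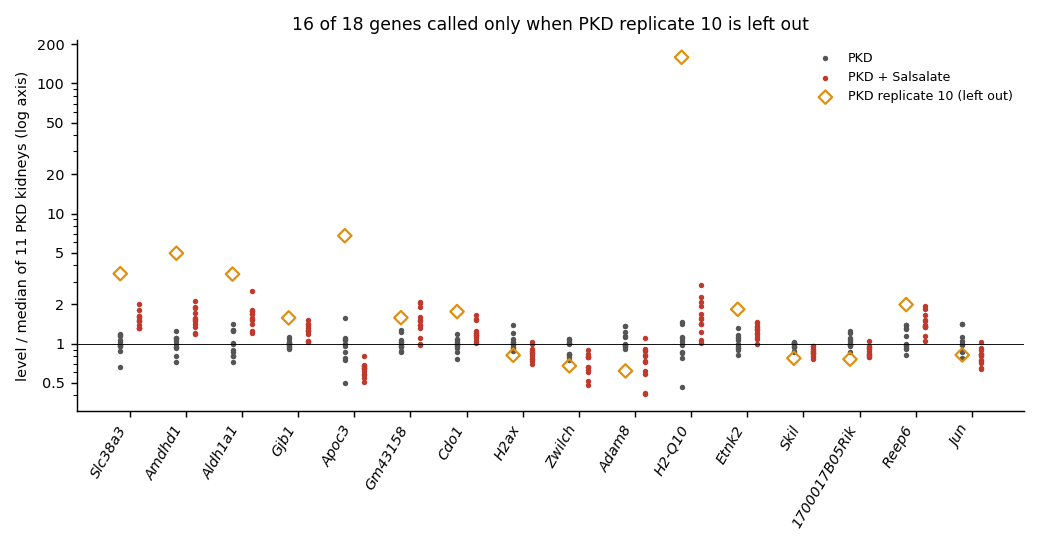
The plot shows 16 of the 18 genes called only when PKD replicate 10 is left out, with each kidney's level divided by the median of the 11 PKD kidneys on a log axis (grey, PKD; red, PKD + Salsalate; open diamond, PKD replicate 10). The diamond lies above all grey points in 10 of these 16 genes and is 108.1 times the highest of them for *H2-Q10*.

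Of the called genes outside the study's selection with the smallest p, some belong to no list. *Gjb1*, the gap junction protein connexin 32, went from 45.7 to 56.2 CPM to 52.0 to 75.8 CPM (log2 fold change 0.33, SE 0.06, adjusted p = 0.00489), *Pla2g6*, a phospholipase, rose by 0.21, *Tmt1a2*, a methyltransferase, by 0.40 and *Tbc1d10a*, a Rab regulator, by 0.24. *Cecr2*, a chromatin remodelling gene, rose by 0.30. *Apom*, the apolipoprotein that carries sphingosine-1-phosphate, fell from 77.6 to 109.7 CPM to 57.9 to 91.2 CPM (-0.35, adjusted p = 0.0138), and *Susd2* (-0.29), *Gga2*, a Golgi adaptor (-0.21), and the long non-coding RNA *Gm31718* (-0.32) fell as well.

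Many processes tied to cystic disease or to salicylate showed little. The 34 genes of cystic disease and the cilium held no call and had a median of -0.01, and the 24 genes of purine synthesis and salvage held none with a median of 0.0022. The heat shock list, the unfolded protein response, the targets of hypoxia-inducible factor, the targets of YAP and Wnt, the serine and folate list and the TCA cycle held no called gene, with medians from -0.02 to 0.04. In 2 of these lists the small changes were one-sided. At an unadjusted p under 0.05, 4 of 19 serine and folate genes and 4 of 32 TCA cycle genes were higher, and none was lower. Single genes were called in the clock list (*Nfil3*, -0.75), in ribosome biogenesis (*Utp20*, -0.30), in glycolysis (*Aldoc*, 0.31), in prostaglandin synthesis (*Cbr1*), and in the cytochrome P450 and the vitamin D and renin lists (*Cyp24a1* in both).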

How the data were processed

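The authors deposited 1 table of raw counts per gene for 32 kidneys. Per the labels and the study's methods, libraries were directional and made from poly(A) RNA, adapters were clipped with cutadapt 2.10, reads were aligned with STAR 2.7.5a to GRCm39 and counted by strand with HTSeq 0.12.4 on Ensembl genes. Reads with more than 1 place in the genome were not counted (7.13% to 8.87% of alignments in the 23 kidneys), and 7.65% to 16.4% lay on no feature. Both stayed out of library totals. Groups and replicate numbers came from the labels, and p-values measure the spread between mice.

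Genes entered the test where log2 CPM exceeded 1 in 25% or more of the 23 kidneys, TMM factors were computed, and groups were compared 2-sided in edgeR 4.0.16 (R 4.3.3, glmQLFit and glmQLFTest) without covariates, with Benjamini-Hochberg adjustment over 13812 genes. CPM of the left-out kidney used TMM factors of all 32 kidneys. Summed marker levels and markers under the filter are plain CPM without these factors. Of 53700 gene identifiers, 52610 were found in GENCODE mouse release 39, which gave symbols and positions on GRCm39. The pipeline was tested on simulated counts.

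The members, the 44 process lists and 14 marker lists, and the way genes were chosen for naming were set with earlier results of these data known. Genes were named from the 15 largest rises and falls among called genes with a mean CPM over 1. They also came from the 10 called genes of smallest p and the 12 outside the study's selection in each direction. Called list members, or the 2 of smallest p where none was called, could be named too. Not every gene that met these rules is named. *Il1rn*, *C4b*, *Nqo1*, *Hmox1*, *Gclc*, *Retsat*, *Ehhadh*, *Acadvl*, *Etv5*, *Uroc1*, *Cdo1*, *Nuak2*, *Ly6e*, *Dpys*, *Havcr1*, *H2-Ab1*, *Cd3d*, *Cd3e* and *Cyp21a1* were named after their values were seen. Alternatives were DESeq2 1.42.0 (size factors and Wald test), limma-voom 3.58.1, upper-quartile factors, robust fitting, filterByExpr, no filter, the 24 kidneys with PKD replicate 10, fits with wildtype kidneys, a replicate block, each kidney left out, and, added after seeing the data, *Havcr1* as a covariate. Relations used 100000 permutations. The values of 2 called genes are not reported here.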

Additional observations from a re-analysis of the deposited data

Results flagged for a closer look

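The kidney left out of the comparison, PKD replicate 10, held *Alb* at 1929 CPM, where the highest of the 23 kidneys compared was at 4.54 CPM. All 43 liver markers were higher in it than in any other PKD kidney, and 29 of them were more than 10 times the highest other PKD kidney. This signal lies in a sample that the comparison does not use. Its level of *Cyp4a14*, at 177.7 CPM, was also above the highest PKD kidney compared, at 52.0 CPM.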

How the results depend on the processing

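With the same 23 kidneys and wildtype added to the fit, 72 genes were called (37 higher, 35 lower), all of them among the 170, and the study's design with all 32 kidneys called 81 (35 higher, 46 lower), 74 of them shared. DESeq2's Wald test called 385 (196 higher, 189 lower), including all 170, and without a filter on low counts 56 genes were called lower. With a replicate block 72 were called (41 higher, 31 lower), 61 of them shared, but the numbers do not pair these mice: same-numbered kidneys had correlations of -0.40 to 0.38, 2 of 11 over 0.1, and 1 correlated best with its own number. Leaving out a kidney gave 95 to 447 calls (44 to 193 higher, 51 to 254 lower). The count moved by over 1.5 times without PKD replicate 1 (95), 5 (106) or 11 (103) and without PKD + Salsalate replicate 5 (112) or 11 (447), and the count of lower genes also without PKD + Salsalate replicate 2 (52), 6 (55), 9 (53) or 12 (54). *H2-Q10* turned to -3.06 with PKD replicate 10 and to -3.08 in the fit of all 32 kidneys. The cause of the other shifts was not tested. Of the 108 called genes that met the naming rules, 50 stayed called with the replicate block, 55 with wildtype added, 56 with all 32 kidneys and 79 without a filter, against 98 with PKD replicate 10 put back and 103 to 108 under the other alternatives. With a kidney left out 77 (without PKD replicate 11) to 108 (without PKD + Salsalate replicate 11) did. Over the 58 lists, 2024 list medians under an alternative stayed within 1 SD of the PKD kidneys and 6 did not. That SD can exceed the change itself: for the respiratory chain it was 0.22, where the list median was 0.11. Such a median could reach 0 and still lie within it, so the count does not show that small list changes are stable.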
